A study of Mus musculus with 12 samples.

Results

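Mitochondrial ribosomal protein genes are nuclear genes, named Mrpl for the large and Mrps for the small subunit, that encode the proteins of the ribosome inside mitochondria. They were chosen by name alone: every row of the gene tables whose name starts with Mrpl or Mrps and a digit, without pseudogenes. The rule gave 73 of 36883 rows, 44 named Mrpl and 29 named Mrps, and all 73 could be compared in both RNA fractions analysed. The RNA of Drosha-deficient mouse embryonic stem (ES) cells was set against that of wild-type (WT) ES cells. For the methylation samples the labels give the WT cells as the AB1 line, of strain 129Sv/Ev, and the Drosha-deficient cells as derived from it, and for the RNA samples they give the genotype with no line. Drosha is the nuclear ribonuclease that cuts microRNA hairpins out of their primary transcripts, and the title of the study concerns Drosha and CG methylation. Cells of both genotypes were kept in a serum medium that held leukemia inhibitory factor, and the labels state neither the disrupted portion of Drosha nor whether the cells are clones. Of 12 samples in the series, 4 libraries are used here, 1 per genotype of poly(A)-selected mRNA and 1 per genotype of long RNA. No sample title names long RNA, and by elimination its values were taken as those of the samples titled total RNA. With 1 library each, no difference below has a replicate check and none was tested.

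The mitochondrial ribosome translates the few respiratory chain proteins that the mitochondrial genome encodes. All its proteins come from nuclear genes, are made in the cytosol and are imported. Some have counterparts in bacterial ribosomes and are called bacterial-type below, and others, called mitochondria-specific, were added in the mitochondrial lineage. In mammalian cells many promoters of these genes carry sites for the factors NRF1, the ETS family member GABP and YY1, which also control respiratory chain genes.

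Levels are FPKM as deposited, that is fragments per length of transcript and per size of the library. Drosha had 6.22 FPKM in Drosha-deficient mRNA and 42.1 FPKM in WT mRNA, and 4.34 FPKM in Drosha-deficient long RNA and 21.2 FPKM in WT long RNA, which is the direction the labels give. By an estimate from the steps of low FPKM values, the Drosha-deficient libraries held about 25000000 (mRNA) and 22300000 (long RNA) fragments and the WT libraries about 22100000 and 18600000. At those depths, 10 FPKM on a transcript of 1 kb rests on 186 to 250 fragments, and its 95% Poisson interval runs at its widest, in WT long RNA, over 8.60 to 11.5 FPKM, which covers counting error only. All 14 ES cell markers listed were above 1 FPKM in mRNA, with 2892 FPKM summed in Drosha-deficient and 2510 FPKM in WT cells. Their median difference, on the log2 scale with a pseudocount defined below, was 0.19. On that scale 2 of the 14, Sall4 and Klf2, were at least 2-fold higher in Drosha-deficient mRNA and none lower. Of all rows 8.64% were higher and 7.93% lower. In long RNA 13 were measured, with 1028 FPKM summed in Drosha-deficient and 1055 FPKM in WT cells and a median of -0.14. None of the 13 reached 2-fold. At 1.5-fold 4 were lower and none higher, beside 17.3% of all rows lower and 13.4% higher. Of 15 fibroblast markers, 7 of the 12 measured in mRNA were at least 2-fold lower in Drosha-deficient cells and none higher on that scale. The 12 summed to 290 FPKM in Drosha-deficient and 555 FPKM in WT mRNA. Twist1 alone of the 12 was above 0, with 3.56 FPKM in Drosha-deficient and 1.68 FPKM in WT mRNA. Dcn, too low to be compared, had 0.999 FPKM in Drosha-deficient and 0.0752 FPKM in WT mRNA. In long RNA 8 of 12 were lower and none higher, beside 6.89% of all rows lower and 6.26% higher. Their sum was 151 FPKM in Drosha-deficient and 314 FPKM in WT cells. Lum was listed at 0 in WT mRNA and in Drosha-deficient long RNA, and no other fibroblast marker was at 0. The part of these markers in the results below was not tested, and in such bulk samples fewer cells of a type and less RNA per cell cannot be told apart.

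The promoters show what these genes share in sequence. RefSeq (GRCm38.p6) gave 68 promoters, each from 250 bases before to 50 bases after a transcription start, for 64 of the 73 genes, with a median GC content of 58.0%. Both strands were searched for the letters CGCATGCG (NRF1), CCGGAAGT (ETS), AAGATGGCG (YY1), GGGCGG (SP1) and TATAAA, and no 2 matches of different motifs overlapped in these promoters. Of the 64 genes, 25 (39.1%) held at least 1 of the NRF1, ETS and YY1 motifs, against 28.3% of 60 genes of the cytosolic ribosome, 16.1% of 9066 genes measured in mRNA and 7.58% of all 27025 genes with a promoter. The lines below show 80 bases of 7 promoters, read 5′ to 3′ on the strand of the gene, with the matched motif in capitals. The first 4 belong to genes at either end of the expression results: Mrpl17 and Mrps22, the highest in Drosha-deficient cells, and Mrpl22 and Mrps26, among the lowest. The last 3 belong to the Mrps18 paralogs, a family of 3 genes related to 1 bacterial small subunit protein, whose promoters each held a different one of the 3 motifs. Their positions are chr7:105811058-105811137 (minus strand, Mrpl17), chr11:58171596-58171675 (plus, Mrpl22), chr9:98601650-98601729 (minus, Mrps22), chr2:130563706-130563785 (plus, Mrps26), chr17:46110954-46111033 (plus, Mrps18a), chr17:35916611-35916690 (minus, Mrps18b) and chr5:100798566-100798645 (plus, Mrps18c).
Mrpl17: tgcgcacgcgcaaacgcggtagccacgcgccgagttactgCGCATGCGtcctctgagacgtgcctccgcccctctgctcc
Mrpl22: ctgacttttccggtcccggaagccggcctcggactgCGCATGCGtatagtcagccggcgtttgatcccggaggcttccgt
Mrps22: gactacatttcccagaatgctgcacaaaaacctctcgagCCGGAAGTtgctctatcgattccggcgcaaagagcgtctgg
Mrps26: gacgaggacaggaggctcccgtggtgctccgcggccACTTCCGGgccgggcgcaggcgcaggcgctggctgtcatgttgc
Mrps18a: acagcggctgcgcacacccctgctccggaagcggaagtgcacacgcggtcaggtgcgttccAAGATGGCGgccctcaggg
Mrps18b: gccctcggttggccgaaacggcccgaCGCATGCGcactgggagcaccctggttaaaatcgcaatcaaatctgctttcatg
Mrps18c: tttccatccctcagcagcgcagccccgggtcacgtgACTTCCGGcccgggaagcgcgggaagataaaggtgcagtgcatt

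The NRF1 letters lay 10 bases before the start in Mrpl17 and 32 before it in Mrpl22, so a gene that was higher and a gene that was lower in Drosha-deficient cells held the same motif. The ETS letters lay 11 bases before the start in Mrps22 on the strand of the gene and 15 before it in Mrps26 on the other strand, again in a pair of genes that differed in opposite directions. Among the paralogs, Mrps18a held the YY1 letters 12 bases after the start, Mrps18b the NRF1 letters 224 bases before it and Mrps18c the ETS letters 157 bases before it.

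In all, NRF1 letters were in 7 genes (10.9%), ETS letters in 11 (17.2%) and YY1 letters in 8 (12.5%), against 4.50%, 9.06% and 3.66% of genes measured in mRNA and 2.07%, 4.31% and 1.64% of all genes. The genes of the cytosolic ribosome, the family most like them, gave 5.00% for NRF1, 18.3% for ETS and 5.00% for YY1 over 60 genes. The YY1 letters were on the strand of the gene and 12 to 37 bases after the start in 6 of 8 genes: Mrpl35, Mrpl37, Mrpl42, Mrps18a, Mrps24 and Mrps27. NRF1 letters occurred at 2 places in Mrpl32, and ETS and YY1 letters together in 1 gene, Mrps27. SP1 letters were in 32 of the 64 genes (50%), against 60% of the cytosolic set, 70.2% of genes measured in mRNA and 38.2% of all genes. TATAAA was in 5 (7.81%), against 10% of the cytosolic set, 8.46% of genes measured in mRNA and 15.7% of all genes. A match describes these letters in these windows and is not a bound site.

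**Figure D1:**
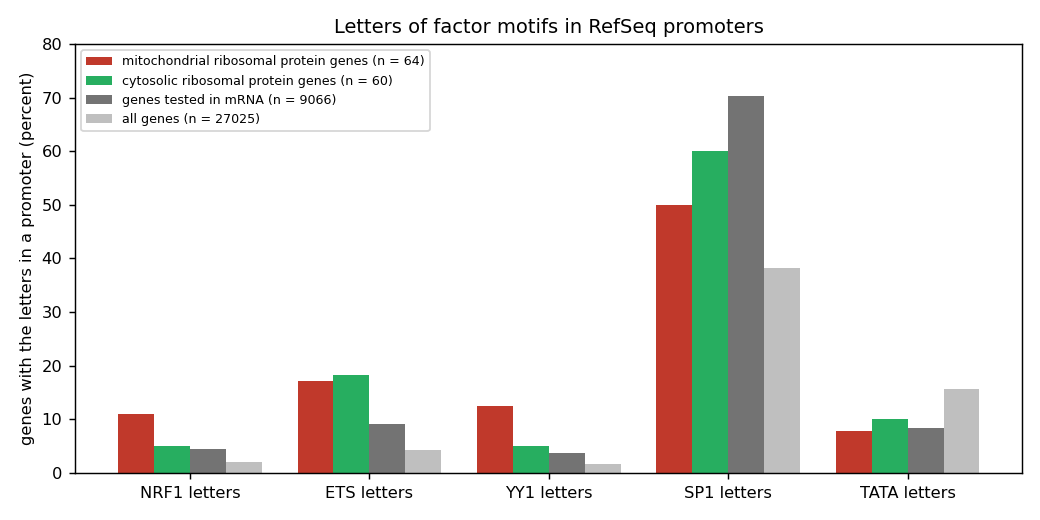
Share of genes, in percent, with each motif on either strand of at least 1 RefSeq promoter of 300 bases, for the 64 mitochondrial ribosomal protein genes, 60 cytosolic ribosomal protein genes, 9066 genes measured in mRNA and all 27025 genes. The NRF1 and YY1 bars of the mitochondrial set stand at 10.9% and 12.5%, above the other sets, its ETS bar at 17.2% is next to the 18.3% of the cytosolic set, and its SP1 bar at 50% is below the 70.2% of measured genes.

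In mRNA most of these genes were modestly lower in Drosha-deficient cells, and few differed by much. Differences are log2((Drosha-deficient FPKM + 1)/(WT FPKM + 1)), so a negative value means lower in Drosha-deficient cells. The median difference was -0.31, with the middle 50% of the genes between -0.60 and 0.03, against a median of 0.01 over 14752 rows measured. Of the 73 genes, 52 (71.2%) were below 0 and 21 above, where 49.5% of all rows were below 0. The median level was 36.3 FPKM in Drosha-deficient and 43.3 FPKM in WT mRNA. Summed over the 73 genes, the levels came to 3240 FPKM in Drosha-deficient and 3874 FPKM in WT mRNA.

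Against a threshold of 2-fold (1 on the log2 scale), 0 of 73 genes were higher and 2 (2.74%) lower in Drosha-deficient mRNA, where 8.64% of all rows were higher and 7.93% lower. Against 1.5-fold, 1 gene (1.37%) was higher and 19 (26.0%) lower, beside 19.0% of all rows higher and 19.4% lower. At 2-fold both shares were thus below the background, and at 1.5-fold the lower share was above it and the higher share below it. The SD of the log2 differences of the set was 0.42, against 0.82 over all rows. Within 1.5-fold lay 53 genes (72.6%), against 61.7% of all rows. All rows measured had a lower median level, 9.61 FPKM in WT mRNA, and the part of level in the spread was not tested. Such an SD was not particular to the set. Among lists described further below it was 0.33 over 20 genes of ribosome assembly and rRNA modification. Over 14 mitochondrial translation factors it was 0.57.

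Long RNA gave nearly the same picture in a separate pair of libraries made from the same genotypes. The median difference was -0.32, with the middle 50% between -0.61 and 0.00, against -0.04 over 13933 rows. Of the 73 genes 54 (74.0%) were below 0 and 19 above, where 53.4% of all rows were below 0. At 2-fold 0 genes were higher and 2 (2.74%) lower, beside 6.26% of all rows higher and 6.89% lower. At 1.5-fold 1 gene (1.37%) was higher and 20 (27.4%) lower, beside 13.4% of all rows higher and 17.3% lower. Median levels were 19.0 FPKM in Drosha-deficient and 22.9 FPKM in WT long RNA, and the SD of the differences was 0.41, against 0.74 over all rows. Over the 20 genes of assembly and rRNA modification the SD was 0.29, and over the 14 translation factors 0.58.

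**Figure D2:**
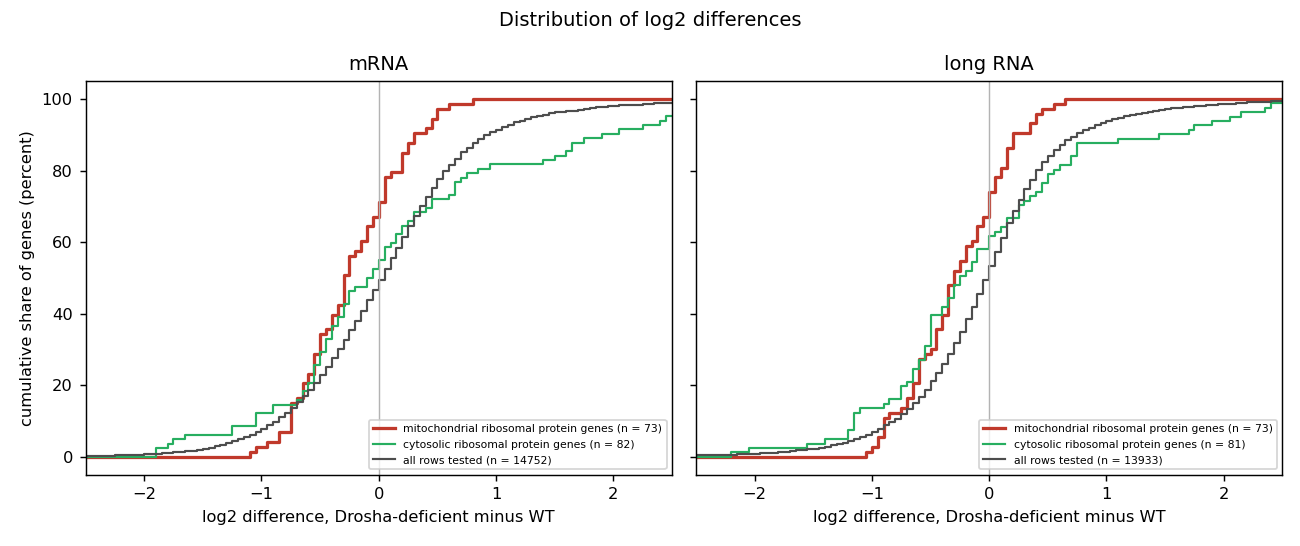
Cumulative share of genes, in percent, against the log2 difference of Drosha-deficient minus WT in mRNA (left) and long RNA (right), in steps of 0.05, for the 73 mitochondrial ribosomal protein genes, the cytosolic ribosomal protein genes (82 in mRNA, 81 in long RNA) and all rows measured. The mitochondrial curve crosses 50% at about -0.31 in mRNA and -0.32 in long RNA, left of the curve of all rows. It climbs from 0 to 100% within a narrower range than the cytosolic curve.

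The large subunit proteins with bacterial counterparts held several of the largest differences. Mrpl24, whose bacterial counterpart helps to start assembly of the large subunit, had 65.0 FPKM in Drosha-deficient and 130 FPKM in WT mRNA, a difference of -0.99, and 39.5 FPKM in Drosha-deficient and 79.3 FPKM in WT long RNA, also -0.99. It lay just inside 2-fold in both fractions on this scale, and its span overlaps Rrnad1. Mrpl21, another bacterial-type protein, had 27.5 FPKM in Drosha-deficient and 58.9 FPKM in WT mRNA (-1.07) and 24.6 FPKM in Drosha-deficient and 42.0 FPKM in WT long RNA (-0.75). Its gene overlaps Ighmbp2, and the labels do not say that counting was by strand, so reads of both genes cannot be told apart where they overlap. Mrpl22, which lines the tunnel through which the new peptide leaves, had 28.5 FPKM in Drosha-deficient and 49.1 FPKM in WT mRNA (-0.76), and 11.9 FPKM in Drosha-deficient and 23.6 FPKM in WT long RNA (-0.94). Mrpl28 differed by -0.77 in mRNA and -0.72 in long RNA.

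The stalk of the large subunit, where translation factors bind, was lower in parts. Mrpl12, which forms the stalk and contacts the factors, had 50.2 FPKM in Drosha-deficient and 86.1 FPKM in WT mRNA (-0.77), and 23.1 FPKM in Drosha-deficient and 35.8 FPKM in WT long RNA (-0.61). Mrpl11, at the base of the stalk, had 9.74 FPKM in Drosha-deficient and 18.5 FPKM in WT mRNA (-0.86), and 5.73 FPKM in Drosha-deficient and 12.5 FPKM in WT long RNA, where its difference of -1.003 was at the 2-fold threshold. Mrpl10, which anchors the stalk, differed less, with 62.8 FPKM in Drosha-deficient and 78.5 FPKM in WT mRNA (-0.32) and 28.8 FPKM in Drosha-deficient and 39.1 FPKM in WT long RNA (-0.43). The 3 stalk genes were thus below 0 in both fractions, with Mrpl10 within 1.5-fold in both.

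Among mitochondria-specific proteins of the large subunit, Mrpl52 was the lowest in long RNA. It had 60.1 FPKM in Drosha-deficient and 92.9 FPKM in WT mRNA (-0.62), and 20.2 FPKM in Drosha-deficient and 43.0 FPKM in WT long RNA (-1.06). Mrpl55 had 14.1 FPKM in Drosha-deficient and 24.8 FPKM in WT mRNA (-0.77), and 6.14 FPKM in Drosha-deficient and 12.9 FPKM in WT long RNA (-0.97). Both were at least 1.5-fold lower in each fraction. Over the 20 genes of this class the median was -0.23 in mRNA and -0.18 in long RNA, with 3 at least 1.5-fold lower in mRNA and 5 in long RNA. Mrpl42 also lay low, at -0.75 in mRNA and -0.68 in long RNA, and genes named for their roles lay closer to 0. Mrpl44 carries a ribonuclease III-type fold, the fold of Drosha's own catalytic domains, and had 28.2 FPKM in Drosha-deficient and 25.1 FPKM in WT mRNA (0.16) and 19.3 FPKM in Drosha-deficient and 21.1 FPKM in WT long RNA (-0.12), with a span that overlaps Wdfy1. Mrpl45, which helps to hold the ribosome at the inner membrane beside the exit of the tunnel, differed by -0.14 in mRNA and 0.11 in long RNA. Mrps30, a large subunit protein despite its name, differed by 0.18 in mRNA and -0.02 in long RNA.

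Small subunit proteins with bacterial counterparts were mostly lower. Mrps10 had 20.002 FPKM in Drosha-deficient and 37.1 FPKM in WT mRNA (-0.86), and 12.6 FPKM in Drosha-deficient and 24.2 FPKM in WT long RNA (-0.89). Mrps16, in which mutations cause a human mitochondrial disease, had 28.4 FPKM in Drosha-deficient and 47.7 FPKM in WT mRNA (-0.73), and 13.3 FPKM in Drosha-deficient and 25.8 FPKM in WT long RNA (-0.91). Mrps5, whose bacterial counterpart lies where messenger RNA enters the ribosome, differed by -0.60 in mRNA and -0.62 in long RNA. Mrps17 differed by -0.78 and -0.47 in mRNA and long RNA, and the row that holds both Mrps6 and Slc5a3 by -0.68 and -0.94. Mrps12, at the decoding centre, had 32.9 FPKM in Drosha-deficient and 38.4 FPKM in WT mRNA (-0.22), and 9.72 FPKM in Drosha-deficient and 13.8 FPKM in WT long RNA (-0.46), within 1.5-fold in both. The exceptions in this class were Mrps2 (0.42 in mRNA, 0.33 in long RNA) and Mrps7 (0.39 and 0.41), whose bacterial counterpart organizes the head of the subunit, which were above 0 in both fractions.

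The gene with the lowest difference in mRNA, Mrps26, encodes a mitochondria-specific small subunit protein. It had 18.3 FPKM in Drosha-deficient and 40.5 FPKM in WT mRNA (-1.10), and 11.3 FPKM in Drosha-deficient and 18.3 FPKM in WT long RNA (-0.65). It was the exception in its class, whose other 9 members lay within 1.5-fold in mRNA.

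The highest gene was Mrpl17, whose bacterial counterpart sits near the end of the exit tunnel. It had 199 FPKM in Drosha-deficient and 118 FPKM in WT mRNA (0.76), and 99.9 FPKM in Drosha-deficient and 63.6 FPKM in WT long RNA (0.64), which are FPKM ratios of 1.69 and 1.57. On the log2 scale with the pseudocount it was the only one of the 73 that was at least 1.5-fold higher, in either fraction. Mrps22, a mitochondria-specific small subunit protein in which mutations cause human mitochondrial disease, came next, with 27.8 FPKM in Drosha-deficient and 18.3 FPKM in WT mRNA (0.58) and 28.5 FPKM in Drosha-deficient and 19.5 FPKM in WT long RNA (0.52), just inside 1.5-fold in mRNA. Mrpl19, at the face between the subunits, differed by 0.47 in mRNA and 0.19 in long RNA, and its span overlaps Gcfc2. Mrpl32 (0.27 and 0.19) and Mrps31 (0.20 and 0.34) were also above 0 in both fractions.

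Mrps36, the member with the lowest level, has since been assigned to the alpha-ketoglutarate dehydrogenase complex and not to the ribosome. It had 2.46 FPKM in Drosha-deficient and 1.46 FPKM in WT mRNA (0.49), and 1.19 FPKM in Drosha-deficient and 0.673 FPKM in WT long RNA (0.39). Its pseudogenes Mrps36-ps1 (2.58 FPKM in Drosha-deficient and 0.880 FPKM in WT mRNA) and Mrps36-ps2 (3.35 FPKM in Drosha-deficient and 1.39 FPKM in WT mRNA) also had higher levels in Drosha-deficient cells, and since the copies can share reads the value of Mrps36 is uncertain.

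The Mrps18 paralogs, whose promoters are printed above, differed from each other. Mrps18a, which sits in the large subunit despite its name, had 30.9 FPKM in Drosha-deficient and 46.7 FPKM in WT mRNA (-0.58), and 16.7 FPKM in Drosha-deficient and 26.5 FPKM in WT long RNA (-0.64). Mrps18b had 44.1 FPKM in Drosha-deficient and 32.4 FPKM in WT mRNA (0.43), and 26.0 FPKM in Drosha-deficient and 20.04 FPKM in WT long RNA (0.36). Mrps18c, the bacterial-type copy, had 29.2 FPKM in Drosha-deficient and 39.7 FPKM in WT mRNA (-0.43), and 19.2 FPKM in Drosha-deficient and 25.5 FPKM in WT long RNA (-0.39). In Drosha-deficient mRNA Mrps18b was thus the highest of the 3 by FPKM, and in WT mRNA Mrps18a was. The order in long RNA was likewise Mrps18b first in Drosha-deficient cells and Mrps18a first in WT cells.

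By class, the median of the genes with bacterial counterparts lay below that of the mitochondria-specific ones in both fractions. In mRNA the median difference was -0.40 over 42 bacterial-type genes, of which 15 (35.7%) were at least 1.5-fold lower and 1 (2.38%) higher. Over 30 mitochondria-specific genes it was -0.17, with 4 (13.3%) lower and none higher, beside 19.4% of all rows lower and 19.0% higher. Below 0 in mRNA were 73.8% of bacterial-type and 70% of mitochondria-specific genes. In the small subunit these shares were 87.5% and 50%, but in the large subunit 65.4% and 80%. Long RNA gave -0.40 with 13 (31.0%) lower and 1 higher, and -0.18 with 7 (23.3%) lower and none higher. There 17.3% of all rows were lower and 13.4% higher. Below 0 in long RNA were 78.6% of bacterial-type and 70% of mitochondria-specific genes. These shares were 75% and 60% in the small and 80.8% and 75% in the large subunit. Within the small subunit the medians in mRNA were -0.45 for 16 bacterial-type and 0.06 for 10 mitochondria-specific genes, and within the large subunit -0.34 for 26 and -0.23 for 20. In long RNA they were -0.44 and -0.13 in the small and -0.39 and -0.18 in the large subunit. Names alone gave no such contrast, with -0.30 for Mrpl and -0.31 for Mrps genes in mRNA and -0.31 and -0.34 in long RNA. The classes were assigned from textbook knowledge of the ribosome, leave out Mrps36 and were not tested against each other. Mrps18a and Mrps18b were placed with the mitochondria-specific proteins, though they are related to the same bacterial protein as Mrps18c. The mitochondria-specific small subunit class had 5 genes below and 5 above 0 in mRNA, so the sign of its median depends on such placements.

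Most genes had similar differences in both fractions. Across the 73 genes, which are not independent replicates, Pearson's r of the mRNA and long RNA differences was 0.83 and Spearman's rho 0.81, beside 0.77 and 0.80 across 13322 rows measured in both. Of the 73 genes, 45 were below 0 in both fractions, 12 above 0 in both and 16 of opposite sign. At least 1.5-fold lower in both were 16 genes, which is 84.2% of the 19 lower in mRNA, 80% of the 20 lower in long RNA and 21.9% of the 73. Among all rows measured in both, 11.9% were lower in both by this threshold. The same cells may lie behind both fractions, so the second pair of libraries is not a replicate of the first.

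**Figure D3:**
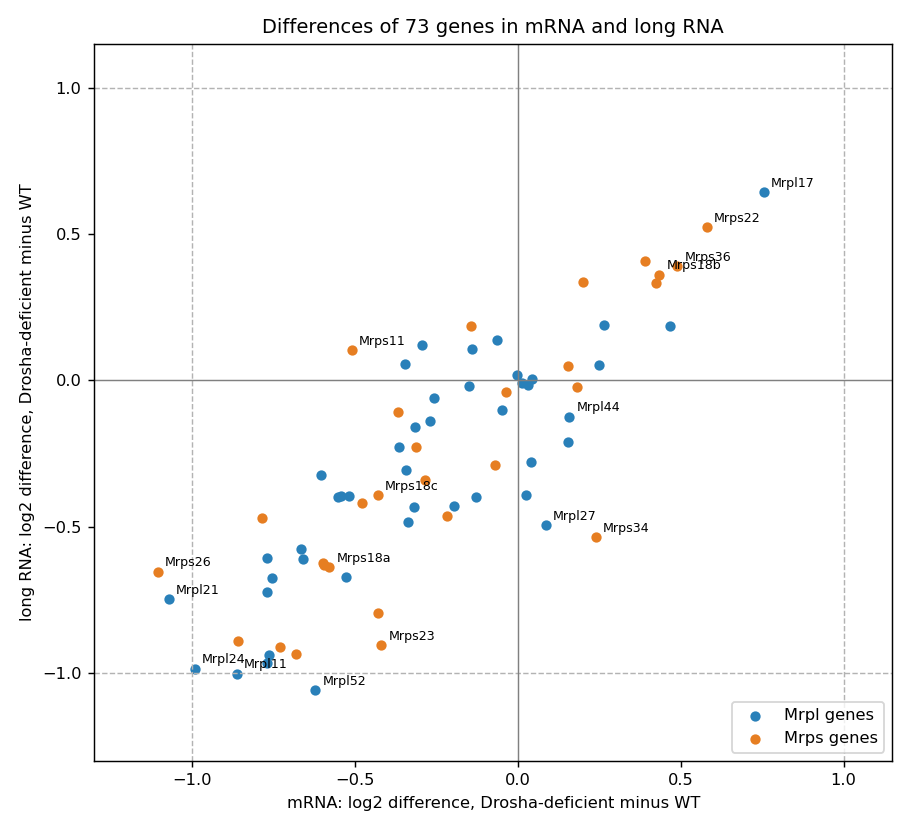
Log2 difference of Drosha-deficient minus WT in long RNA (vertical axis) against that in mRNA (horizontal axis) for the 73 genes, 1 point per gene, Mrpl and Mrps genes in different colours, with dashed lines at 2-fold. Most points lie at lower left, Mrpl17 and Mrps22 at upper right, and 16 points lie in the quadrants of opposite sign, among them Mrps34 and Mrps11.

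A few genes differed between fractions. The row that holds both Mrps34 and Nme3 had 65.2 FPKM in Drosha-deficient and 55.1 FPKM in WT mRNA (0.24) but 7.24 FPKM in Drosha-deficient and 10.9 FPKM in WT long RNA (-0.53). Mrps34 is needed for a stable small ribosomal RNA in mitochondria, but the row cannot separate it from Nme3. Mrpl27, whose bacterial counterpart reaches toward the peptidyl transferase centre, differed by 0.09 in mRNA and -0.49 in long RNA, and its span overlaps Eme1. Mrpl3 differed by 0.03 and -0.39, and Mrps23 by -0.42 and -0.91. In the other direction, Mrps11, a platform protein, differed by -0.51 in mRNA and 0.10 in long RNA, with 17.1 FPKM in Drosha-deficient and 24.8 FPKM in WT mRNA and 9.41 FPKM in Drosha-deficient and 8.68 FPKM in WT long RNA. Mrpl40 (-0.29 in mRNA, 0.12 in long RNA), Mrpl18 (-0.35 and 0.06, with a span that overlaps Tcp1) and Mrps15 (-0.14 and 0.19) did likewise. With 1 library each, these differences between fractions have no error.

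Transcript levels of the 73 genes spanned a wide range in every library. Per length, they ran from 2.46 to 199 FPKM in Drosha-deficient and from 1.46 to 160 FPKM in WT mRNA, and from 1.19 to 107 FPKM in Drosha-deficient and from 0.673 to 109 FPKM in WT long RNA. Mrpl15 was among the highest and hardly differed, with 164 FPKM in Drosha-deficient and 160 FPKM in WT mRNA and 107 FPKM in Drosha-deficient and 109 FPKM in WT long RNA. Mrpl20, whose bacterial counterpart is needed for assembly, had 106 FPKM in Drosha-deficient and 103 FPKM in WT mRNA (0.04). The row of Mrps24 and Urgcp had 112 FPKM in Drosha-deficient and 151 FPKM in WT mRNA (-0.43) and 40.9 FPKM in Drosha-deficient and 71.7 FPKM in WT long RNA (-0.80). The order of the genes by level was largely shared by the genotypes, with Spearman's rho across the 73 genes of 0.87 in mRNA and 0.90 in long RNA, but the gene at the top in mRNA was Mrpl17 in Drosha-deficient and Mrpl15 in WT cells.

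**Figure D4:**
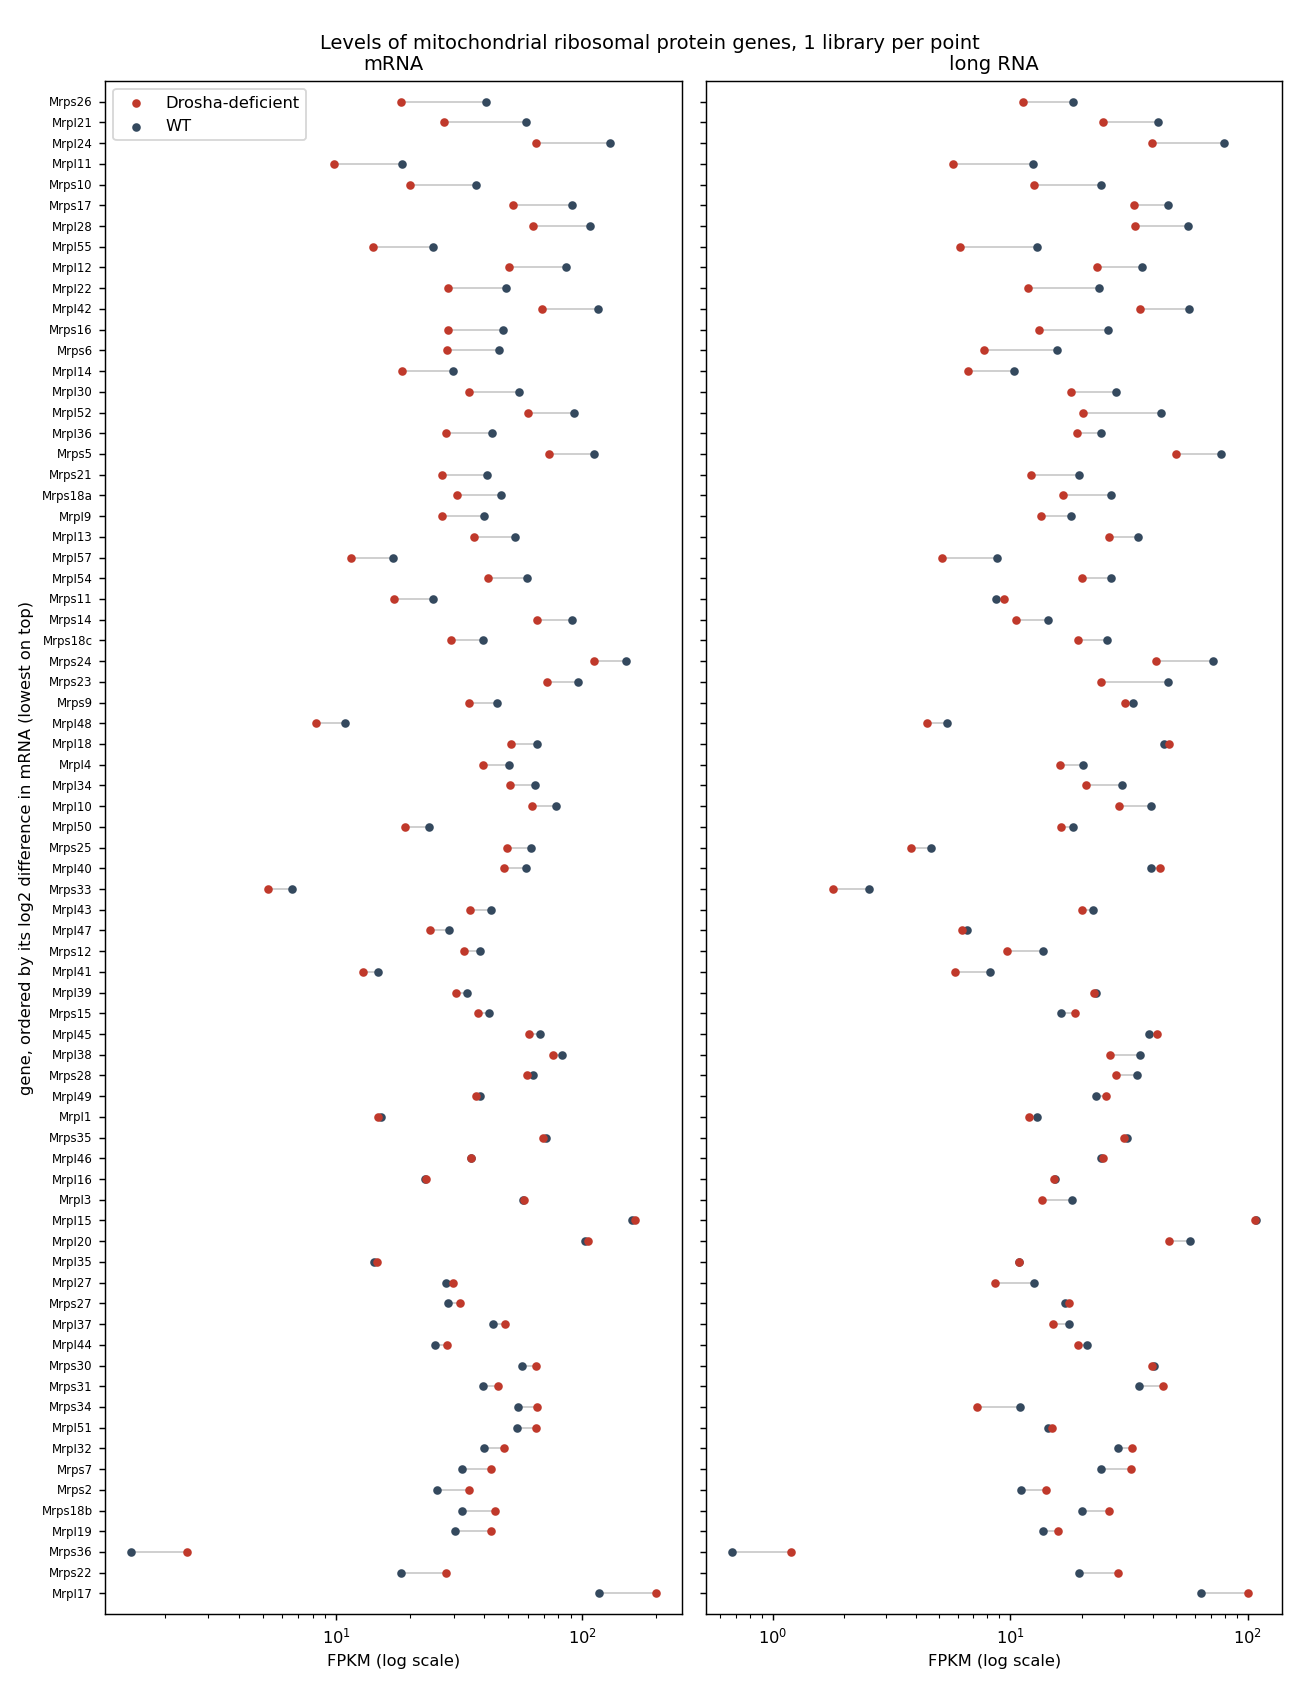
FPKM on a log axis for each of the 73 genes in mRNA (left) and long RNA (right), 1 point per library, Drosha-deficient and WT joined by a line, with genes ordered down the page by the mRNA difference from lowest to highest. In the upper part of both panels, apart from Mrps11, Mrpl18 and Mrpl40 in long RNA, the Drosha-deficient point lies left of the WT point. In the lowest rows, from Mrps7 to Mrpl17, the Drosha-deficient point lies right of the WT point.

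Other genes of mitochondrial translation showed no common direction. Of the proteins of the same ribosome that carry other names, 6 of 7 were found and none reached 2-fold, with a median of -0.06 in mRNA and one of -0.10 in long RNA. Dap3, a GTPase of the small subunit, had 62.4 FPKM in Drosha-deficient and 69.5 FPKM in WT mRNA, and Ict1, a peptidyl-tRNA hydrolase built into the large subunit, had 95.8 FPKM in Drosha-deficient and 99.8 FPKM in WT mRNA. Ptcd3, a pentatricopeptide repeat protein of the small subunit, had 43.0 FPKM in Drosha-deficient and 34.2 FPKM in WT mRNA (0.32). Chchd1 had 54.6 FPKM in Drosha-deficient and 74.4 FPKM in WT mRNA (-0.44). In long RNA Chchd1 had 29.9 FPKM in Drosha-deficient and 52.7 FPKM in WT cells (-0.80), the only 1 of the 6 at least 1.5-fold lower there. Aurkaip1 (120.1 FPKM in Drosha-deficient and 126 FPKM in WT mRNA) and Gadd45gip1 (20.2 FPKM in Drosha-deficient and 17.2 FPKM in WT mRNA) were nearer equal in mRNA. Among 14 mitochondrial translation factors, 1 was at least 2-fold lower in mRNA, beside 7.93% of all rows. It was Tufm, the elongation factor that brings aminoacyl-tRNA to the ribosome. Tufm had 27.1 FPKM in Drosha-deficient and 58.6 FPKM in WT mRNA (-1.09) and 17.6 FPKM in Drosha-deficient and 42.3 FPKM in WT long RNA (-1.22). In long RNA Mtg2, a GTPase of large subunit assembly, was at least 2-fold higher, with 10.8 FPKM in Drosha-deficient and 3.60 FPKM in WT cells. The medians of the factors were -0.17 in mRNA and -0.05 in long RNA. At 1.5-fold 4 of the 14 factors (28.6%) were lower and 1 higher in mRNA, beside 19.4% of all rows lower and 19.0% higher. In long RNA 2 of them (14.3%) were lower and 1 higher by this threshold, beside 17.3% and 13.4% of all rows.

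None of 20 measured genes of ribosome assembly and rRNA modification reached 2-fold in either fraction (medians -0.14 in mRNA and -0.09 in long RNA), nor did any of 13 genes of mitochondrial transcription and genome upkeep (0.25 and 0.10). At 1.5-fold in mRNA 1 of the 20 (5%) was lower and 1 higher, and 3 of the 13 (23.1%) were lower and 1 higher. Of all rows 19.4% were lower and 19.0% higher by this threshold in mRNA. Of 17 mitochondrial aminoacyl-tRNA synthetases 1 row was higher in mRNA, that of the leucyl enzyme gene Lars2. It had 2101 FPKM in Drosha-deficient and 465 FPKM in WT mRNA (2.17) but 17.1 FPKM in Drosha-deficient and 14.1 FPKM in WT long RNA (0.27). Whether reads from other sequences fall in this row was not checked, so its mRNA value is uncertain. The medians of the synthetases were 0.10 in both fractions. Among regulators of mitochondrial biogenesis none of 9 measured in mRNA and of 8 in long RNA reached 2-fold. The genes of the 3 factors whose motifs were searched were near equal in mRNA: Nrf1 had 50.5 FPKM in Drosha-deficient and 41.2 FPKM in WT cells, Gabpa, the DNA-binding subunit of GABP, had 45.2 FPKM in Drosha-deficient and 40.7 FPKM in WT cells, and Yy1 had 44.9 FPKM in Drosha-deficient and 40.2 FPKM in WT cells. The mitochondrially encoded mt-Cytb, cytochrome b of complex III, had 1192 FPKM in Drosha-deficient and 699 FPKM in WT mRNA, and 189 FPKM in Drosha-deficient and 161 FPKM in WT long RNA.

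Genes with NRF1 letters had a median nearer 0 than genes without them, and for the other motifs the order was not shared by both fractions or the medians were closer. In mRNA the median difference was -0.15 over the 7 genes with NRF1 letters and -0.34 over the 57 without, and in long RNA -0.02 and -0.34. With ETS letters it was -0.27 over 11 genes and without them -0.32 over 53 in mRNA, and -0.23 and -0.34 in long RNA. With YY1 letters it was -0.47 over 8 genes and without them -0.31 over 56 in mRNA, and -0.27 and -0.37 in long RNA. With SP1 letters it was -0.32 over 32 genes and without them -0.32 over 32 in mRNA, and -0.17 and -0.41 in long RNA. None of these contrasts was tested. The NRF1 and ETS groups held genes on both sides of 0, such as Mrpl17 and Mrpl22 for NRF1 and Mrps22 and Mrps26 for ETS.

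Beside the cytosolic ribosomal protein genes, the mitochondrial set had a narrower spread. In mRNA 82 cytosolic genes had a median of -0.10 and an SD of 1.14. Of these 15 were at least 2-fold higher and 10 lower, beside 8.64% of all rows higher and 7.93% lower. In long RNA 81 had a median of -0.27 and an SD of 0.98, with 10 higher and 11 lower, beside 6.26% and 6.89% of all rows. The cytosolic rows were taken by name alone, and their levels in WT mRNA ran from 1.61 to 2726 FPKM. Reads that they may share with pseudogene copies were not examined, so their spread is uncertain. The mitochondrial set had 0 higher and 2 lower genes by the same threshold in each fraction. This contrast was not tested.

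Length of the gene on the genome moved with the differences over all rows. Rows with a gene span of 3 to 6 kb had a median of -0.19 in mRNA and -0.11 in long RNA, and rows over 50 kb had 0.24 in mRNA and 0.07 in long RNA. The 73 genes are short, with a median span of 7.63 kb and the middle 50% between 4.12 and 12.8 kb, where the median of all rows with a span was 18.0 kb. Over the 2662 rows within 4.12 to 12.8 kb, the median in mRNA was -0.18, 25.5% were at least 1.5-fold lower and 11.9% higher, and the 36 mitochondrial ribosomal protein genes in this range had a median of -0.27. In long RNA the 2378 such rows had a median of -0.13, with 19.0% lower and 8.79% higher, and the 36 genes had -0.18. By class of span, the median of 18 genes at 3 to 6 kb was -0.45 in mRNA and -0.39 in long RNA, where all rows had -0.19 and -0.11. At 12 to 25 kb the median of 14 genes was -0.37 in mRNA and -0.39 in long RNA, against -0.07 over all rows in each fraction. At 6 to 12 kb 22 genes had -0.20 in mRNA and -0.11 in long RNA, against -0.17 and -0.15 over all rows, so the gap to rows of like span varied with the class. The part of gene span in the shift was not tested further.

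**Figure D5:**
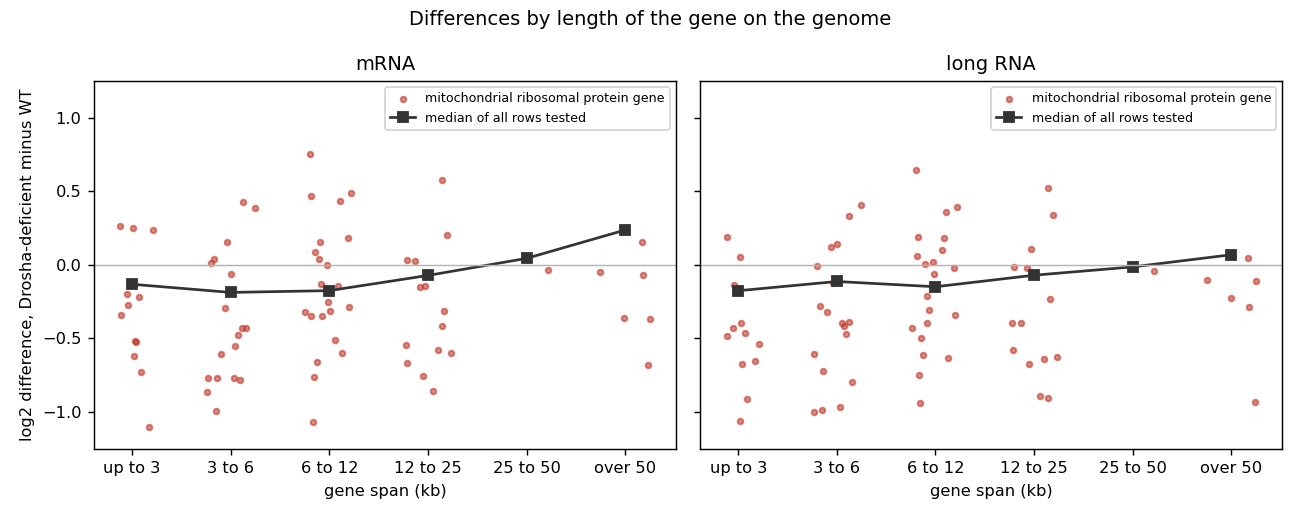
Log2 difference of Drosha-deficient minus WT in mRNA (left) and long RNA (right) against gene span on the genome in 6 classes (kb), with 1 point per mitochondrial ribosomal protein gene, spread sideways within its class, and squares for the median of all rows measured. The squares run from -0.13 for the shortest to 0.24 for the longest class in mRNA and from -0.18 to 0.07 in long RNA, and most points lie below the squares.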

How the data were processed

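RNA was measured in ES cells. TopHat2 2.0.10, Cuffdiff with Cufflinks 2.1.1, and bcl2fastq 1.8.4 are named in the submitters' processing notes, with the build mm10/GRCm38, and per the labels' protocols libraries were made with a small RNA kit. No annotation, library scaling or use of strand is stated. The deposited tables hold FPKM per gene, with WT as value 1 and Drosha-deficient as value 2, per the file headers. The authors' deposited q-value rests on 1 library per genotype and compares libraries. In the authors' deposited table the lowest q of any member was 0.999 in mRNA and 1.00 in long RNA. By elimination, the long RNA table was taken as that of the total RNA samples.

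Since FPKM is no count, differences were taken on a log2 scale and no test was run. Rows were compared if their status was OK and 1 of both libraries reached 1 FPKM, with a pseudocount of 1 FPKM, which understates differences of low genes. Levels were not compared between tables, which were normalized separately. Rows with several names (3 members) were taken whole. Mrpl2, Mrpl33 and Mrpl53 lie in rows that begin with another gene's name and were left out with 4 pseudogenes, and 1 further gene of this name pattern is not reported here. Of the 73 genes, 22 overlap another RefSeq gene. Not all of these are marked where they are described, and Mrps2, Mrps7, Mrps18a, Mrps18b and Mrps23 are among them. Depth was estimated from the FPKM of single fragments. The 2-fold call alone was checked on simulated rows, with changes larger than 2-fold. Smaller differences, the 1.5-fold counts, the motif search and the depth estimate were not checked in this way. Named genes were those with the highest and lowest differences or levels, those past 2-fold, those that differed most between fractions and a set named for their roles. The members and lists were chosen with earlier results of these data known. Alternatives were other pseudocounts, minimums, scalings, thresholds and the omission of shared or overlapping rows. Dnmt1-deficient and methylation samples were not analysed here. Python 3.11.15, pandas 2.3.3 and scipy 1.17.1 were used.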

Additional observations from a re-analysis of the deposited data

Results flagged for a closer look

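Short RNA lies outside the comparisons above. Of the 73 genes, 17 could be measured there, 4 at least 2-fold higher in Drosha-deficient cells and 3 lower. Their median log2 difference was 0.21 (-0.03 over 2597 rows, of which 14.8% were higher and 18.4% lower). The 4 genes at least 2-fold higher were Mrpl15 with 6.70 FPKM in Drosha-deficient and 2.78 FPKM in WT cells, Mrpl13 with 4.79 FPKM in Drosha-deficient and 1.56 FPKM in WT cells, Mrpl18 with 4.14 FPKM in Drosha-deficient and 0.952 FPKM in WT cells, and Mrps12 with 5.08 FPKM in Drosha-deficient and 1.13 FPKM in WT cells. The 3 lower ones were Mrps18c with 1.68 FPKM in Drosha-deficient and 5.38 FPKM in WT cells, Mrpl24 with 2.36 FPKM in Drosha-deficient and 6.25 FPKM in WT cells, and Mrps23 with 2.51 FPKM in Drosha-deficient and 6.11 FPKM in WT cells. The 3 lower genes were also below 0 in mRNA and long RNA. Of the 4 higher ones, Mrpl13 (-0.54 in mRNA, -0.39 in long RNA) and Mrps12 (-0.22 and -0.46) were below 0 in both, Mrpl15 differed by 0.03 and -0.02, and Mrpl18 by -0.35 and 0.06. These genes were chosen after their values were seen. No replicate was available.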

How the results depend on the processing

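Each genotype and fraction had 1 library, so no call can be checked by leaving a library out. No paired analysis was possible because no group had a second library. The median differences stayed below 0 under every alternative run, from -0.37 to -0.27 in mRNA and from -0.39 to -0.26 in long RNA. The counts at 2-fold were small and moved. In mRNA the 2 lower genes became 0 with a pseudocount of 5 FPKM, 1 without members that overlap another gene and 19 at 1.5-fold. In long RNA the 2 lower genes became 5 with a pseudocount of 0.1 FPKM, 0 with 5 FPKM, 1 after centring on the median of all rows, 1 with upper quartile scaling and 20 at 1.5-fold. The 0 higher genes became 1 at 1.5-fold in each fraction and stayed 0 under the other alternatives. Upper quartile scaling multiplied Drosha-deficient FPKM by 0.957 in mRNA and 1.01 in long RNA. For the 82 differences of members that the naming rule picked, 624 of 624 values under these alternatives moved by less than 1.5-fold. Mrpl13, Mrpl35, Mrpl37, Mrpl42 and Mrps27 were not among them.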
